A study of Rattus norvegicus with 24 samples.

Results

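Liver gene expression was compared between female rats exposed to a high-fat diet (HFD) only through their own food and female rats exposed only through the food of their grandfather. The 12 arrays were chosen by the diets in their titles: 6 carried own exposure alone and 6 carried ancestral exposure alone, of 24 arrays in all. The animals were adult F2 Sprague-Dawley females, unaltered in genotype as far as the labels say, and 1 array was made per liver sample. Own exposure alone meant a chow-fed grandfather and an HFD (42/45% of energy from fat) eaten by the female for 12 weeks. Ancestral exposure alone meant an HFD-fed grandfather and chow eaten by the female over the same 12 weeks. For reference, 7 females had neither exposure (chow in both generations) and 5 had both. No label ties a female to a litter or a grandfather, so p-values measure the spread between these animals, and relatedness within a group was not tested. The growth protocol speaks of gonadal fat, while title, source and tissue labels say liver.

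Signals are the deposited linear intensities taken as log2(value + 16), and every difference below is on that log2 scale, with its standard error after ±. Of 20917 probe sets, 15687 were tested. Adjusted p-values are those of limma after the Benjamini-Hochberg step across these 15687, and the threshold was 0.05. Over the 12 arrays the median intensity lay between 97.9 and 122, and the log2 signals of any pair correlated at 0.983 to 0.993. On the second principal component over all 24 arrays (13.8% of the variance), 4 arrays scored 0.39 to 0.44 and the other 20 scored -0.24 to 0.10. These were arrays 21 and 25 of the unexposed females, array 22 of the own-exposure females and array 24 of the females with both exposures. Several results that use them, though not all, are given with and without them. The 11 tested hepatocyte markers had a mean log2 signal per array of 12.65 to 12.93 over the 12 arrays. The 9 tested adipocyte markers had a mean log2 signal of 6.84 to 7.42.

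The liver makes its own cholesterol from acetyl-CoA through the mevalonate pathway. The transcription factor SREBP-2 is known to switch on the genes of that pathway together when membrane sterol is low and to be held back when sterol is plentiful. Dietary fat also reaches liver genes through PPARα, a fatty-acid-sensing receptor known for its hold on fatty acid oxidation. Work on lines descended from an HFD-fed male asks whether descendants carry part of the state that the diet itself produces.

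Own and ancestral exposure differed for 46 probe sets, 0.293% of those tested. Of these, 33 (0.21%) were lower with own exposure and 13 (0.0829%) were higher. The lower set held enzymes of cholesterol synthesis and of acetyl-CoA supply, and the higher set included Spink1l, Kcnma1 and Setbp1. They came to 27 named genes lower and 13 higher, with 3 lower probe sets unnamed here. In 24 of the 46, the own-exposure and ancestral-exposure arrays did not overlap, against 0.631% of all tested probe sets. With arrays 21, 22, 24 and 25 left out, 54 probe sets passed (37 lower, 17 higher), and 41 of the 46 were among them. The 5 lost were Rgma, Pde6c, Sema3e, 1 of the probe sets of Kif26b and 1 unnamed probe set. Leaving out 1 array at a time gave 25 to 43 calls, and 21 of the 46 passed in all 12 fits. The lowest count, 25, came without array 37 of the ancestral-exposure females.

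Set beside the unexposed females, most of the 46 probe sets differed more with own than with ancestral exposure. The median absolute difference from unexposed females was 0.75 with own exposure and 0.14 with ancestral exposure. Own exposure gave the larger absolute difference for 41 of the 46. For all 46, the 95% interval of the ancestral difference excluded the own-exposure value. These columns share the 7 unexposed arrays and the calls were made on their difference, so they describe the calls and are no separate test.

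**Figure D1:**
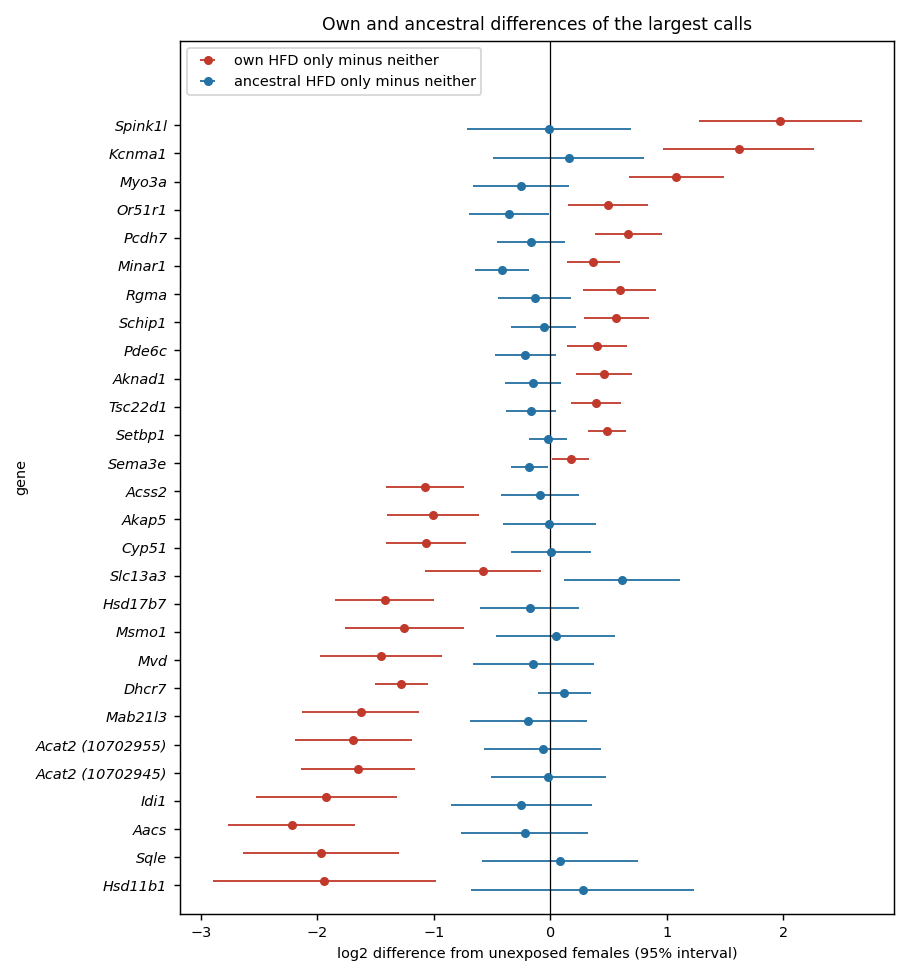
Differences from unexposed females for the largest calls of own against ancestral exposure, on the log2(value + 16) scale with 95% intervals; red points are own HFD only and blue points ancestral HFD only, both against the same 7 arrays. Most red points stand away from 0 while blue points lie near it, except genes such as Slc13a3 and Minar1, where the points lie on opposite sides of 0.

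Enzymes of cholesterol synthesis were lower with own exposure than with ancestral exposure. Of 16 tested genes of the pathway, 10 fell (0.212% of all 12745 genes tested were lower and 0.102% higher), none rose, and the median difference was -0.92, against 0.02 over all genes. All 16 estimates were below 0. Against unexposed females, 11 fell with own exposure (0.267% of all genes were lower) with a median of -1.01. With ancestral exposure none passed and the median was 0.00, where 9 estimates lay above 0 and 7 below. Between the exposures the count of falls was 11 without arrays 21, 22, 24 and 25 and ran from 7 to 13 when 1 array was left out.

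Dhcr7, the reductase of the last step to cholesterol, had the smallest adjusted p. Its log2 signal was 9.54 to 9.96 (median 9.72) over the 6 own-exposure arrays and 10.87 to 11.30 (median 11.17) over the 6 ancestral-exposure arrays. In unexposed females it was 10.71 to 11.32 (median 11.10), and with both exposures it was 9.38, 10.02, 9.93, 9.91 and 9.73. All ancestral-exposure arrays lay inside the range of unexposed females, and no own-exposure array reached them. The own-minus-ancestral difference was -1.40 ± 0.12 (adjusted p = 5.52e-08), a 2.64-fold lower signal. The ancestral difference from unexposed females was 0.12 ± 0.11 (adjusted p = 0.77).

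Sqle, squalene epoxidase and a rate-controlling step of the sterol branch, had a log2 signal of 7.23 to 9.77 (median 8.45) with own exposure. With ancestral exposure it was 9.58 to 10.84 (median 10.57), and in unexposed females 9.77 to 10.87 (median 10.48). The highest own-exposure array overlapped the lowest ancestral one, and the other arrays stood apart. The difference was -2.05 ± 0.34 (adjusted p = 0.00305), and the 5 arrays with both exposures read 6.83, 8.87, 8.09, 7.71 and 8.72.

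Idi1, the isomerase that makes dimethylallyl diphosphate, ran from 7.23 to 9.59 (median 8.25) with own exposure and from 9.18 to 10.57 (median 10.22) with ancestral exposure. The groups overlapped at their edges, and the difference was -1.67 ± 0.30 (adjusted p = 0.0079). Acat2, the cytosolic thiolase that joins acetyl-CoA units, was measured by 2 probe sets. The brighter one ran from 7.77 to 9.26 (median 8.13) with own exposure and from 9.64 to 10.38 (median 10.02) with ancestral exposure. Both of its probe sets fell without overlap between the groups, by 1.63 and 1.62 on the log2 scale.

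The other called enzymes of the pathway fell by less than Dhcr7 on the log2 scale. Mvd, the mevalonate diphosphate decarboxylase, differed by -1.31 ± 0.26 (adjusted p = 0.0197) and Msmo1, the sterol methyl oxidase, by -1.30 ± 0.26 (adjusted p = 0.0187). Cyp51, the lanosterol demethylase, differed by -1.07 ± 0.17 (adjusted p = 0.003). Hsd17b7, a sterol ketone reductase, was called on both of its probe sets, at -1.25 ± 0.22 and -0.92 ± 0.17. Those probe sets disagreed in size against unexposed females, at -1.42 and -0.66 with own exposure. Pmvk, the phosphomevalonate kinase, differed by -0.76 ± 0.16, and Fdft1, squalene synthase, by -0.74 ± 0.12 (adjusted p = 0.0225 and 0.0031). Mvd, Pmvk and Msmo1 each lost their call when some single array was left out. The pathway genes that did not pass, named after their values were seen, were Tm7sf2 (-0.74), Ebp (-0.55), Lss (-0.73), Nsdhl (-0.20), Fdps (-0.21) and Sc5d (-0.16), with adjusted p from 0.0513 to 0.81.

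Of the 7 called enzymes with a promoter in the table, the 4 whose promoter holds CCAAT were picked for that match, and Dhcr7, which like Acat2 and Cyp51 holds none, is printed beside them. They show the stretch in which SREBP-2 and its partner NF-Y are known to bind in sterol genes. Each runs 300 bases, from 250 before the start of the gene to 50 after it, from RefSeq on GRCr8, and capitals mark CCAAT on either strand. The positions are chr17:66547475-66547774 (minus strand) for Idi1, chr19:67414925-67415224 (minus) for Mvd, chr16:29746863-29747162 (plus) for Msmo1 chr13:84722705-84723004 (minus) for Hsd17b7 and chr1:208444184-208444483 (plus) for Dhcr7.
Idi1: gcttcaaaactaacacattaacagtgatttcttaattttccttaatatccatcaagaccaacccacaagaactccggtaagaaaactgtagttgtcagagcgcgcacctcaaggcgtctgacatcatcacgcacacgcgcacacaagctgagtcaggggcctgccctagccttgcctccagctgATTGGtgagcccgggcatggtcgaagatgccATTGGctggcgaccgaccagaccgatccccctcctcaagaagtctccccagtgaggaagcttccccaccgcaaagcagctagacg
Mvd: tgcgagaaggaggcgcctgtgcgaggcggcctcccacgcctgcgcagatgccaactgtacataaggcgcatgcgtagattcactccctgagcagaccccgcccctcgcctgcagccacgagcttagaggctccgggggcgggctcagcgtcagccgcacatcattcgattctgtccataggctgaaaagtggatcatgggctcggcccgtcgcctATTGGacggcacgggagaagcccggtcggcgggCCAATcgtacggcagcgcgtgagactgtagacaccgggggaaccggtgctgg
Msmo1: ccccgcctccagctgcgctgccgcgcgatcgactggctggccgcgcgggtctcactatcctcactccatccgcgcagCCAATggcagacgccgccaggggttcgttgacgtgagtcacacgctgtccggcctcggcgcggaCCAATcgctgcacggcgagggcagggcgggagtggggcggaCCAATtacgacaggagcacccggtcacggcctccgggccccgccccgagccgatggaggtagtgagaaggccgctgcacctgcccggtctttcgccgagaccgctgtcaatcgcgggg
Hsd17b7: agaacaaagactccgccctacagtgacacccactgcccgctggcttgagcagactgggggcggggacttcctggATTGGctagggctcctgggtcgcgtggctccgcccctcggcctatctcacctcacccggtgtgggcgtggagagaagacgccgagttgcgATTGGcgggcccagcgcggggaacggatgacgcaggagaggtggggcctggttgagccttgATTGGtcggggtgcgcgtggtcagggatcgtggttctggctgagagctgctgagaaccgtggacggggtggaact
Dhcr7: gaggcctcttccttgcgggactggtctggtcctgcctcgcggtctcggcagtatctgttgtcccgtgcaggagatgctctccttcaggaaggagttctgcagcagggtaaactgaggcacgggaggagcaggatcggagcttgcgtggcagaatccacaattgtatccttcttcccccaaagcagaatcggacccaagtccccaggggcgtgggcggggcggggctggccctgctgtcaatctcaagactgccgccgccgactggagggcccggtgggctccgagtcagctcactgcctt
CCAAT was found in 4 of the 7 called cholesterol genes that had a promoter (57.1%), 9 of the 20 called lower (45.0%) and 4 of the 11 called higher (36.4%), against 37.7% of all 27457 promoters. The sterol regulatory element core, searched as TCACNCCAC on both strands, was in none of the 31 called genes with a promoter and in 1.13% of all promoters. A match is a description of letters, and no match says only that these letters are not in this window. Of the 40 called genes, 9 are not in the promoter table, Sqle among them.

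**Figure D2:**
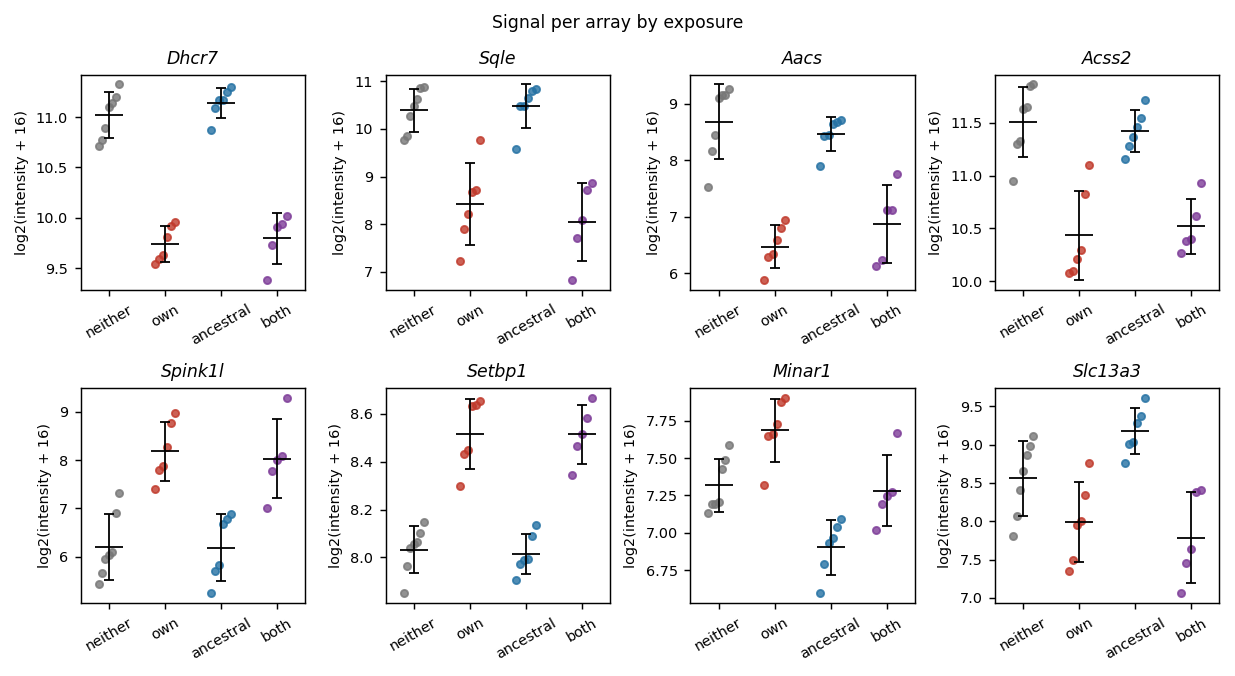
Log2(value + 16) signal of each array (points) for 8 genes called between own and ancestral exposure, with group means and SDs (bars), in 7 unexposed, 6 own-exposure, 6 ancestral-exposure and 5 both-exposure females. For Dhcr7 the own-exposure arrays lie between 9.54 and 9.96 and the ancestral ones between 10.87 and 11.30; for Minar1 and Slc13a3 the unexposed females lie between the other groups in their medians.

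Around the sterol pathway, genes of cytosolic acetyl-CoA supply and sterol transfer were also lower with own exposure. Aacs, acetoacetyl-CoA synthetase, which feeds ketone bodies into lipid synthesis, had a log2 signal of 5.88 to 6.94 (median 6.47) with own exposure and 7.90 to 8.71 (median 8.54) with ancestral exposure. The groups did not overlap, and the difference was -2.0 ± 0.28 (adjusted p = 0.000785). In unexposed females Aacs ran from 7.53 to 9.26 (median 9.10), a range that held all 6 ancestral-exposure arrays. Acss2, which makes acetyl-CoA from acetate, ran from 10.08 to 11.10 with own exposure and from 11.15 to 11.72 with ancestral exposure. Its difference was -0.99 ± 0.17 (adjusted p = 0.00402). Stard4, a carrier that moves cholesterol between membranes, ran from 7.02 to 7.91 with own and from 8.18 to 8.50 with ancestral exposure, again without overlap. It differed by -0.71 ± 0.12 (adjusted p = 0.00359).

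Few other genes of sterol sensing and of fatty acid synthesis were called. Stard4 was the only call among 16 tested genes of sterol sensing, transport and uptake. The median of these 16 was -0.17. At an unadjusted p under 0.05, 6 of them were lower and 0 higher, against 350 lower and 477 higher of all 12745 genes. Srebf2, which encodes SREBP-2, differed by -0.52 (adjusted p = 0.173), and passed when array 32 of the own-exposure females was left out (adjusted p = 0.0419). Insig1, the sterol-regulated anchor of the SREBP complex, differed by -0.40 (adjusted p = 0.51). Of 21 tested genes of fatty acid and triglyceride synthesis, Aacs and Acss2 were the only calls, and the median was 0.08. Pnpla3, a lipid-droplet lipase gene, differed by 1.48 with a wide spread (adjusted p = 0.72).

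The largest fall outside lipid synthesis was Hsd11b1, the enzyme that regenerates active glucocorticoid inside the cell. Its log2 signal ran from 5.31 to 7.28 (median 6.11) with own exposure, from 7.14 to 9.31 (median 8.67) with ancestral exposure and from 5.88 to 9.40 (median 8.37) in unexposed females. The groups overlapped at 1 end and spread widely. The difference was -2.22 ± 0.48 (adjusted p = 0.0418), and the call held in only 4 of the 12 fits that left out 1 array. The other 10 tested genes of glucocorticoid metabolism and response were not called.

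Mab21l3, of unsettled function, ran from 5.49 to 7.09 with own and from 7.11 to 8.18 with ancestral exposure, and differed by -1.44 ± 0.25 (adjusted p = 0.00526). Akap5, an anchor for protein kinase A, ran from 5.97 to 6.71 against 7.00 to 7.90 and differed by -1.0 ± 0.20 (adjusted p = 0.0197). Neither gene overlapped between the groups, and in both the median of the ancestral-exposure arrays lay within the range of unexposed females. Apart from Slc13a3, described with the genes of opposed direction, the remaining named falls were between -0.42 and -0.94, and all but Kif26b and Abcc3 of them were named after their values were seen. They were Acsf2, a mitochondrial acyl-CoA synthetase, Syn2, a synaptic vesicle protein, Dpysl5, Chpf, which extends chondroitin chains, Tlcd1, Bri3bp, Txnrd3, a thioredoxin reductase, Ogdhl, Kif26b and Abcc3. Against unexposed females, Txnrd3 stood at -0.14 ± 0.11 with own and at 0.38 ± 0.11 with ancestral exposure (adjusted p = 0.808 and 0.448). The larger part of its difference thus lay with ancestral exposure, and its call held in 3 of the 12 fits that left out 1 array.

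Higher with own exposure were 13 genes. Spink1l, a relative of the pancreatic trypsin inhibitor, had a log2 signal of 7.40 to 8.97 (median 8.07) with own exposure, 5.25 to 6.89 (median 6.26) with ancestral exposure and 5.44 to 7.32 (median 6.04) in unexposed females. No own-exposure array overlapped either group, and the difference was 1.98 ± 0.35 (adjusted p = 0.0061), a 3.96-fold higher signal. The acinar pancreas list gave no call among 6 tested genes, with a median difference of 0.05.

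Kcnma1, the pore of a calcium-activated potassium channel, ran from 7.73 to 9.60 with own exposure and from 6.57 to 7.39 with ancestral exposure. It differed by 1.46 ± 0.33 (adjusted p = 0.0479), and it passed in only 2 of the 12 fits without 1 array. Myo3a, a class III myosin, ran from 5.82 to 7.09 against 4.85 to 5.6 and differed by 1.33 ± 0.21 (adjusted p = 0.00224). Neither Kcnma1 nor Myo3a overlapped between the exposures. The mean of Myo3a over all 24 arrays, 5.77, was just above the cut of 5.72 under which probe sets were left out. Its group means were 6.52 with own exposure, 6.04 with both, 5.43 with neither and 5.18 with ancestral exposure. It thus entered the test only through the females that ate the HFD, and it passed in 11 of the 12 fits without 1 array. Setbp1, which binds the SET oncoprotein, ran at 8.30 to 8.65 with own exposure, 7.91 to 8.13 with ancestral exposure and 7.85 to 8.15 in unexposed females. Its difference was 0.50 ± 0.08 (adjusted p = 0.00305), and the ancestral difference from unexposed females was -0.02 ± 0.08.

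Tsc22d1, a leucine-zipper protein induced by TGF-β, ran from 11.59 to 11.85 with own and from 10.46 to 11.28 with ancestral exposure, a difference of 0.56 ± 0.11 (adjusted p = 0.0133). Pcdh7, a protocadherin, overlapped slightly between the groups and differed by 0.84 ± 0.15 (adjusted p = 0.00526). The others were Rgma, a co-receptor of bone morphogenetic proteins (0.73), Schip1 (0.62), Pde6c, a cone phosphodiesterase subunit (0.61), Aknad1 (0.61), Or51r1, an olfactory receptor gene (0.85), Minar1 (0.78) and Sema3e, a secreted guidance factor (0.36). Rgma and Pde6c did not pass without arrays 21, 22, 24 and 25 (adjusted p = 0.0929 and 0.11), nor did Sema3e (adjusted p = 0.0614).

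The animals outside this contrast gave a second look at the same 46 probe sets. Females with both exposures against females with neither share no array with the contrast of own against ancestral exposure, although the fit shares 1 estimate of spread per probe set. All 33 probe sets lower with own exposure were also below 0 there, and 25 of them passed, against 1.9% of all probe sets lower (2.04% in either direction). Of the 13 higher probe sets, 12 were above 0 and 3 passed (Setbp1, Kcnma1 and Spink1l), against 0.14% of all. None passed in the opposite direction. The exception in sign was Minar1, at -0.04 ± 0.12. Over all 15687 probe sets, 78.99% of those lower with own exposure were also below 0 with both exposures, and 30.84% of those higher were above 0, with a median of -0.09. After quantile normalization these shares were 50.81% and 56.77%, all 46 had the same sign in both contrasts, and 29 of them were called, against 0.924% of all probe sets higher and 1.07% lower. Without arrays 21, 22, 24 and 25 all 46 also kept the same sign. Of the 33 lower, 24 were called there, and of the 13 higher, 2. Over all tested probe sets, 196 were called lower and 17 higher in that fit.

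**Figure D3:**
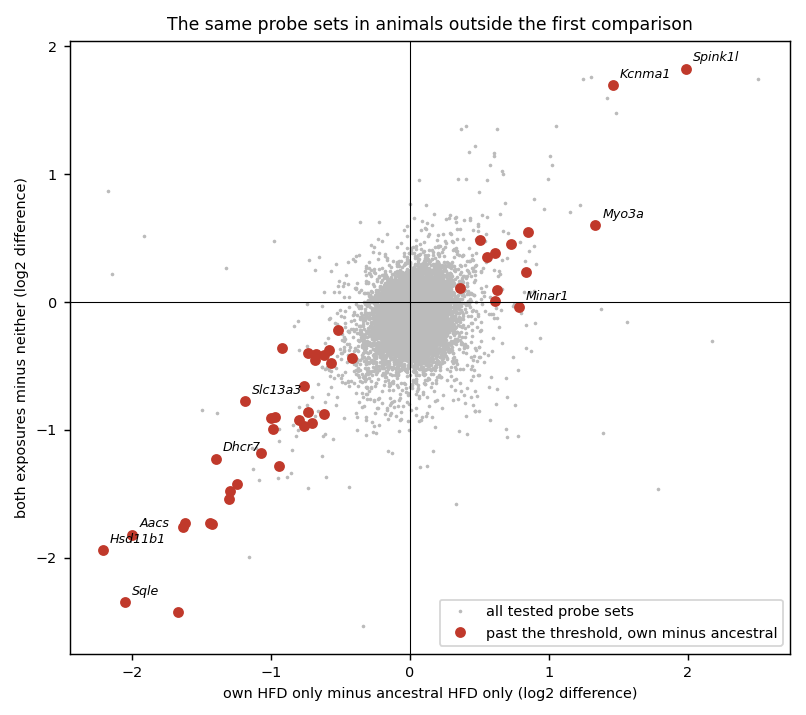
Each point is 1 of 15687 probe sets: the log2 difference of own HFD only minus ancestral HFD only (horizontal) against both exposures minus neither (vertical), with no array shared between the axes; the 46 red points passed in the first. The 33 red points on the left lie below 0 on the vertical axis, and 12 of the 13 on the right lie above it.

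The same genes had these values in the other animals. Both exposures against neither gave -1.22 ± 0.12 for Dhcr7, -2.34 ± 0.34 for Sqle, -1.82 ± 0.28 for Aacs and -2.42 ± 0.31 for Idi1. It gave -1.94 ± 0.49 for Hsd11b1 and 1.83 ± 0.36 for Spink1l. Median absolute values over the 46 were 0.84 for own against ancestral exposure and 0.87 for both against neither. Of the 16 cholesterol genes, 14 fell with both exposures, against 1.93% of all genes, with a median of -1.20. Nsdhl and Sc5d were the pathway genes that did not pass there.

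For some of the genes called between the exposures, own and ancestral exposure lay on opposite sides of the unexposed females, each at an unadjusted p under 0.05 and none past adjustment on its own. Both values are set against the same 7 arrays, so they are given as a description. Minar1, a membrane receptor that binds NOTCH2, ran from 7.32 to 7.90 (median 7.69) with own exposure, from 6.60 to 7.09 (median 6.95) with ancestral exposure and from 7.13 to 7.59 (median 7.21) in unexposed females. Own-exposure and ancestral-exposure arrays did not overlap, and every ancestral array lay below the lowest unexposed one. Its differences from unexposed females were 0.37 ± 0.11 with own and -0.41 ± 0.11 with ancestral exposure (adjusted p = 0.227 and 0.437). The difference between the exposures was 0.78 ± 0.12 (adjusted p = 0.00174). With both exposures the 5 arrays read 7.25, 7.67, 7.02, 7.27 and 7.20.

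Slc13a3, a sodium-coupled carrier of dicarboxylates, ran from 7.35 to 8.76 (median 7.98) with own exposure, from 8.76 to 9.61 (median 9.16) with ancestral exposure and from 7.80 to 9.12 (median 8.66) in unexposed females. The groups met at their edges. It stood at -0.57 ± 0.24 with own and 0.62 ± 0.24 with ancestral exposure, and between the exposures at -1.19 ± 0.25 (adjusted p = 0.0288). Abcc3, a pump that exports bile salts and glucuronides to blood, ran from 6.80 to 7.34 with own and from 7.61 to 7.91 with ancestral exposure. The unexposed arrays (6.85 to 8.05) overlapped both groups. Its differences were -0.42 and 0.31, and -0.73 ± 0.15 between the exposures (adjusted p = 0.0239).

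Kif26b, a kinesin-family gene, showed the same order on both of its probe sets, at -0.34 and -0.26 with own and 0.28 and 0.33 with ancestral exposure. Or51r1 stood at 0.49 and -0.36, and Sema3e at 0.18 and -0.18. Without arrays 21, 22, 24 and 25 every one of these probe sets kept both signs, and the ancestral differences of Or51r1 and Sema3e shrank to -0.27 and -0.11. Their ancestral unadjusted p was then 0.166 in each, and 1 probe set of Kif26b had 0.0627 with own and 0.0719 with ancestral exposure, so these no longer met the entry condition. With quantile normalization or centring, Minar1 was the only gene of the 3 higher with own exposure that kept an ancestral unadjusted p under 0.05. The other probe set of Kif26b then had an own-exposure unadjusted p of 0.0556 with quantile normalization and 0.0646 with centring. Calls for Slc13a3, Abcc3, Or51r1, Sema3e and Kif26b were each lost in at least 1 fit that left out a single array. Minar1 passed in all 12.

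Other genes stood on the same side of the unexposed females with either exposure. The 8 named in each direction had unadjusted p-values under 0.05 with own and with ancestral exposure, and both values are set against the same 7 arrays, so they are no separate evidence of each other. They were the first, by the larger p, of 165 higher and 132 lower named probe sets that met this condition, against 7 of opposite sign. Sharing the unexposed arrays favours like signs, so these counts do not measure resemblance. For none did the exposures differ past adjustment, which does not show that they acted alike, so intervals are given.

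Cyp3a23-3a1, a cytochrome P450 that oxidises steroids and drugs, ran from 10.33 to 11.93 (median 10.86) with own exposure, from 10.06 to 11.52 (median 11.05) with ancestral exposure and from 8.67 to 11.18 (median 9.84) in unexposed females. Both exposed groups overlapped the unexposed one. The differences were 1.21 ± 0.32 and 1.15 ± 0.32 (adjusted p = 0.135 and 0.437), and the difference between exposures was 0.06, with an interval of -0.62 to 0.75. Females with both exposures stood at 0.96 ± 0.34.

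Ech1 and Decr1, which help to oxidise unsaturated fatty acids, gave close values. Ech1 ran from 10.64 to 11.28 with own, from 10.50 to 11.62 with ancestral exposure and from 10.08 to 11.01 in unexposed females, and stood at 0.57 ± 0.18 and 0.66 ± 0.18. Decr1 stood at 0.55 ± 0.16 and 0.48 ± 0.16. The exposures differed by -0.08 for Ech1 (-0.45 to 0.29) and by 0.07 for Decr1 (-0.27 to 0.40). With both exposures together the values were 0.32 ± 0.18 and 0.27 ± 0.16, and neither passed.

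Ccnd1, cyclin D1, stood at 0.90 ± 0.19 with own exposure, where it passed (adjusted p = 0.031), and at 0.61 ± 0.19 with ancestral exposure, where it did not (adjusted p = 0.448). Without arrays 21, 22, 24 and 25 the call with own exposure was lost (0.67, adjusted p = 0.28). Its difference between exposures was 0.29 (-0.12 to 0.70). Arrdc3, an arrestin-domain protein, stood at 0.44 and 0.32, Cebpg, a transcription factor of the C/EBP family, at 0.33 and 0.27, C20h6orf136 at 0.27 and 0.31, and Tmem203 at 0.33 and 0.33. Without arrays 21, 22, 24 and 25, Tmem203 fell short of an unadjusted p of 0.05 with either exposure, and the other 7 did not.

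On the lower side were genes that included parts of actin, clathrin and immune-receptor machinery. Arpc1b, a subunit of the actin-nucleating Arp2/3 complex, ran from 9.73 to 10.23 with own, from 9.79 to 10.08 with ancestral exposure and from 9.97 to 10.53 in unexposed females. It stood at -0.40 ± 0.10 and -0.38 ± 0.10, with -0.02 between exposures (-0.23 to 0.19). Zbp1, a sensor of nucleic acids, ran from 6.02 to 6.78 with own, from 6.23 to 6.55 with ancestral exposure and from 6.62 to 6.91 in unexposed females. Every ancestral array of Zbp1 lay below every unexposed one, and its values were -0.34 and -0.34.

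Ly6c, a leukocyte surface antigen, stood at -0.88 ± 0.23 and -0.72 ± 0.23, and with both exposures at -1.16 ± 0.24, where it passed (adjusted p = 0.0104). Ap1s2, a subunit of the AP-1 clathrin adaptor, stood at -0.45 ± 0.14 and -0.64 ± 0.14. The rest were Dok1, a docking protein of immune receptor signalling (-0.33 and -0.28), Fbxl15 (-0.31 and -0.35), Rimbp2 (-0.28 and -0.33) and Tlr11, a Toll-like receptor (-0.30 and -0.33). All 8 kept an unadjusted p under 0.05 with either exposure when arrays 21, 22, 24 and 25 were left out. In bulk tissue, fewer cells of a type and less RNA per cell cannot be told apart.

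**Figure D4:**
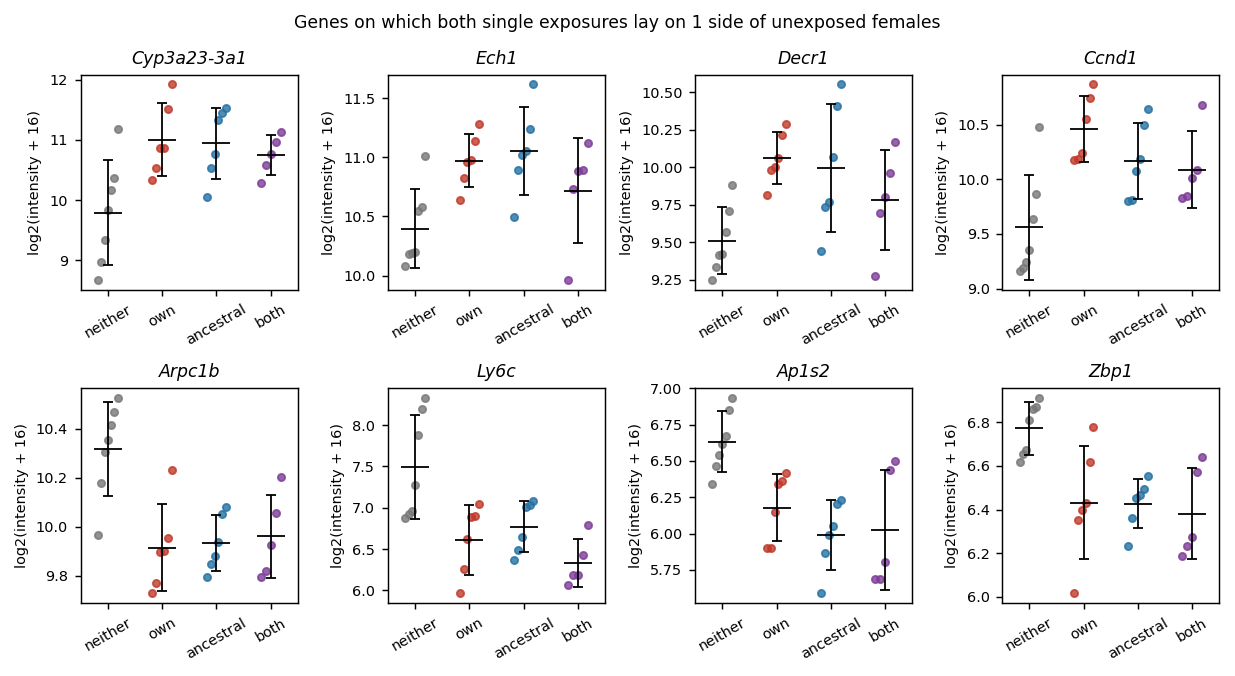
Log2(value + 16) signal of each array (points) with group means and SDs (bars) for 8 genes whose own-exposure and ancestral-exposure means lay on the same side of the unexposed females, in 7, 6, 6 and 5 females from left to right. In Zbp1 and Ap1s2 every ancestral-exposure array lies below every unexposed one, while in Cyp3a23-3a1 the exposed groups overlap the unexposed females.

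Ancestral exposure alone gave no probe set past the threshold against unexposed females (0.0%), with 608 higher (3.88%) and 827 lower (5.27%) at an unadjusted p under 0.05 and a smallest adjusted p of 0.354. The direction of this split depended on the normalization. At the same unadjusted p, 1044 were higher and 784 lower with quantile normalization, and 1503 higher and 569 lower with centring on the array median. Own exposure alone gave 50 (0.319%), 12 higher (0.0765%) and 38 lower (0.242%). Ube2n, a conjugating enzyme of lysine-63 ubiquitin chains, had the smallest ancestral p. It ran from 7.36 to 8.67 (median 8.12) with ancestral exposure and from 8.57 to 9.19 (median 8.87) in unexposed females, an overlap at the edge. Its difference was -0.80 ± 0.16 with ancestral exposure and -0.30 ± 0.16 with own exposure. Without array 41 of the ancestral-exposure females, Ube2n passed (adjusted p = 0.0289).

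The other leading ancestral differences did not pass either. On the higher side they were Scamp5, a secretory carrier protein (0.58), Csnk2b, the regulatory subunit of casein kinase 2 (0.47), Tcf7l1, a Wnt-pathway transcription factor (0.67), Ilk, an integrin-linked adaptor (0.37), and Blcap (0.50). Own exposure gave 0.35, 0.30, 0.22, 0.18 and 0.34 for these genes. On the lower side were Ap1s2, Rnf135, a ubiquitin ligase (-0.61), Srsf12, a splicing factor (-0.36), and Ap2b1, a subunit of the AP-2 clathrin adaptor (-0.48). Own exposure gave -0.33, -0.18 and -0.33 for the last 3. Both columns use the same unexposed arrays, and none of these genes differed between the exposures past adjustment.

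Genes of fatty acid oxidation under PPARα and of oxidative phosphorylation held no call between the exposures. Of 29 tested genes of fatty acid oxidation, 25 lay above 0 with own exposure (6868 of all 12745 genes). With ancestral exposure 22 did (5861 of all genes), against the same unexposed arrays. The medians against unexposed females were 0.17 with own and 0.10 with ancestral exposure, and 6 of the 29 had an ancestral unadjusted p under 0.05 on the higher side, against 3.3% of all genes. Leaving out 1 array gave 2 (without ancestral-exposure array 37) to 10 (without unexposed array 28) such genes, and 3 without unexposed array 30. Over all tested probe sets, 354, 1147 and 434 were higher at such a p in these fits, against 608 with all arrays. With both exposures 19 of the 29 lay below 0, with a median of -0.05. Over all 12745 genes, 9443 lay below 0 there, with a median of -0.09. Vnn1, a pantetheinase and PPARα target, ran from 9.24 to 9.97 with own exposure, from 7.58 to 9.08 with ancestral exposure and from 6.85 to 8.84 in unexposed females. It passed with own exposure (1.63 ± 0.29, adjusted p = 0.00537), stood at 0.73 ± 0.29 with ancestral exposure (adjusted p = 0.497), and at 0.90 ± 0.31 between the exposures (adjusted p = 0.435). Chosen after their values were seen, Eci1, an isomerase of fatty acid oxidation, stood at 0.61 with own and 0.63 with ancestral exposure, and Cpt1a, the gate of mitochondrial fatty acid entry, at 0.58 and 0.59.

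For 26 tested genes of oxidative phosphorylation, the median was 0.15 with own and 0.15 with ancestral exposure and -0.01 between them (0.02 without arrays 21, 22, 24 and 25). With ancestral exposure 24 of the 26 lay above 0 and 10 had an unadjusted p under 0.05 on the higher side. Of all 12745 genes, 5861 lay above 0 and 420 (3.3%) had such a p. Without arrays 21, 22, 24 and 25, 21 of the 26 lay above 0 and 3 had such a p, with a median of 0.09. Over all tested probe sets, 309 had such a p on the higher side in that fit, against 608 with all arrays. Leaving out 1 array gave 2 (without ancestral-exposure array 37) to 13 (without unexposed array 28) such genes of the 26. It gave 3 without unexposed array 21 and 6 without unexposed array 25 or ancestral-exposure array 42. Over all tested probe sets, the counts in these fits were 354, 1147, 289, 508 and 446. None of the 26 passed adjustment. In females with both exposures the median was -0.01, against -0.09 over all genes. Other lists also lay mostly above 0. Of 11 hepatocyte markers, 11 did with own (median 0.14) and 10 with ancestral exposure (median 0.10). With ancestral exposure 18 of 20 xenobiotic and 15 of 17 oxidative stress genes did, and 4 of 20 interferon genes. After quantile normalization the ancestral medians were 0.11 for oxidative phosphorylation, 0.05 for fatty acid oxidation, -0.01 for hepatocyte markers and 0.01 over all genes.

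**Figure D5:**
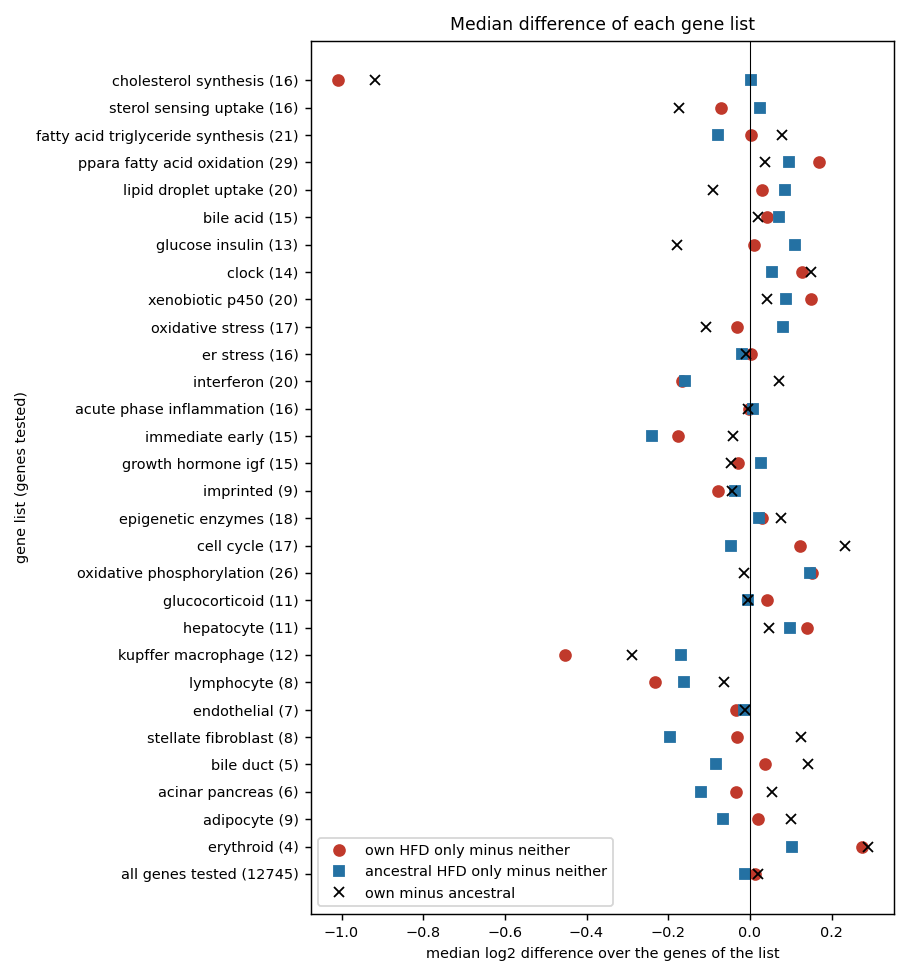
Median log2 difference over the tested genes of each list (number in brackets) for own HFD only minus neither (red circles), ancestral HFD only minus neither (blue squares) and own minus ancestral (crosses). Cholesterol synthesis lies at -1.01 with own and 0.00 with ancestral exposure, while oxidative phosphorylation lies at 0.15 with each.

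Among bile acid genes, Abcc3 was the only call between the exposures of 15 tested. Nr0b2, the repressor SHP, passed with own exposure (1.13, adjusted p = 0.035) and stood at 0.66 with ancestral exposure, where it did not pass. Without arrays 21, 22, 24 and 25 its call with own exposure was lost (0.93, adjusted p = 0.0719), and it held in 4 of the 13 fits that left out 1 array. In lipid droplet and uptake genes, none of 20 was called between the exposures. Fabp2, a fatty acid binding protein best known from gut, ran from 8.33 to 9.45 with own and from 7.17 to 8.62 with ancestral exposure and differed by 0.99 (adjusted p = 0.167). Against unexposed females Fabp2 passed with own exposure (1.35, adjusted p = 0.0103), also in all 13 fits that left out 1 array. Without arrays 21, 22, 24 and 25 it did not pass (1.34, adjusted p = 0.0551). Cidea, a lipid droplet protein, differed by -0.89 (adjusted p = 0.0916), after passing against unexposed females with own exposure (-0.94), a call lost without arrays 21, 22, 24 and 25 (-0.79, adjusted p = 0.186) and held in 3 of the 13 fits that left out 1 array.

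Phlda2, an imprinted growth regulator, ran from 5.93 to 6.25 with own, from 6.34 to 6.68 with ancestral exposure and from 6.41 to 7.01 in unexposed females. Own-exposure arrays did not overlap either group. It passed with own exposure (-0.59, adjusted p = 0.00186), stood at -0.21 with ancestral exposure, and differed by -0.38 between the exposures without passing (adjusted p = 0.144). None of the other 8 tested imprinted genes was called in any of these comparisons. Of 17 cell cycle genes none was called between the exposures, with a median of 0.23. Interferon genes had medians of -0.17 with own and -0.16 with ancestral exposure over 20 genes, and immediate early genes -0.18 and -0.24 over 15, with no call between the exposures.

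Markers of other liver cells were set beside these values. All 12 tested Kupffer cell markers were below 0 between the exposures (median -0.29), and below 0 with own (median -0.45) and with ancestral exposure (median -0.17) against unexposed females. Of all 12745 genes, 5483 lay below 0 between the exposures, 5877 with own and 6884 with ancestral exposure. When 1 array was left out, the median ran from -0.36 to -0.19 between the exposures and from -0.24 to -0.09 with ancestral exposure. Without unexposed array 28, 3 of the 12 were above 0 with ancestral exposure. The ancestral median was -0.09 without unexposed array 26 and -0.10 without unexposed array 28 or ancestral-exposure array 39. Their mean log2 signal per array ran from 8.31 to 9.09 with own exposure, from 8.81 to 9.56 with ancestral exposure and from 9.04 to 9.73 in unexposed females. Marco, a scavenger receptor of these macrophages, passed with own exposure against unexposed females (-1.30, adjusted p = 0.0028). Between the exposures it stood at -0.95 (adjusted p = 0.0778), and it passed there after quantile normalization (adjusted p = 0.045). The part of these markers in the lower values of Ly6c, Arpc1b, Zbp1 and Dok1 was not tested. Lists for lymphocytes (8 genes), endothelium (7), stellate cells and fibroblasts (8), bile ducts (5), adipocytes (9) and erythroid cells (4) held no call between the exposures, with medians from -0.06 to 0.29. Lower ancestral values were not particular to Kupffer markers. Against unexposed females, the ancestral median was -0.16 for lymphocytes (7 of 8 below 0) and -0.20 for stellate cells and fibroblasts (all 8 below 0). With own exposure these medians were -0.23 and -0.03. Ancestral medians of endothelium, bile ducts, adipocytes and erythroid cells ran from -0.08 to 0.10.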

How the data were processed

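Liver RNA of 24 female rats was measured on 1 Affymetrix array each, 7, 6, 6 and 5 per group. The deposited values are linear intensities, 1 for each probe set on each array. The submitters' processing notes name Affymetrix Expression Console and PLIER, and their versions and options were not given in the sources used here. From these, log2(value + 16) was computed without further normalization, and the 25% of probe sets with the lowest mean (log2 under 5.72) were left out. The rest were fitted in limma 3.58.1 (R 4.3.3; 4 group means over 24 arrays, eBayes with an intensity trend), two-sided, with Benjamini-Hochberg adjustment; the fit was tested on simulated data. The number of arrays limits the precision. Gene names are those of the platform annotation, brought up to date with RefSeq (18197 of 20917 probe sets with 1 gene, 18052 of them matched); lists used the brightest probe set per gene. Members and lists were chosen with earlier results of these data known. Named genes had 1 symbol not starting with LOC or RGD: up to 15 calls per direction between the exposures; up to 8 per direction with unadjusted p under 0.05 in both single exposures, of like or opposite sign; the 5 smallest ancestral p per direction; and, per list described, the calls or up to 4 smallest p. Alternatives were other normalizations, filters, offsets, eBayes options, array weights, arrays 21, 22, 24 and 25 left out or as a block, a fit on only the groups compared, and each array left out in turn.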

Additional observations from a re-analysis of the deposited data

Results flagged for a closer look

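In 14 of 220 groups of 6 arrays checked among the named genes, 1 array stood far from the other 5 on the log2 scale by Dixon's criterion, which chance alone meets in about 1 of 20 groups. Among calls between the exposures, Or51r1 read 7.95 in own-exposure array 31 (next 7.37), Pde6c 5.89 in own-exposure array 35 (next 6.32), Tsc22d1 10.46 in ancestral-exposure array 41 (next 11.18), Sqle 9.58 in ancestral-exposure array 39 (next 10.47) and Aacs 7.90 in ancestral-exposure array 42 (next 8.44). The Sqle and Aacs readings lay towards the own-exposure arrays, and the Tsc22d1 reading lay away from them. Outside the calls, Rimbp2 read 6.40, Vnn1 9.97 and Vsig4 8.38 in own-exposure array 34. Fabp4 read 6.59 in ancestral-exposure array 39, Nr5a2 10.32 in ancestral-exposure array 40, and Cyp2a1 12.74 in own-exposure array 35 and 12.18 in ancestral-exposure array 40. Nnat read 7.63 in own-exposure array 31 and 6.04 in ancestral-exposure array 42.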

How the results depend on the processing

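No named-gene value past the threshold changed sign under the alternatives run. Of the other named-gene values, 10 did under some alternative, all differences between the exposures of at most 0.08 in size. Minar1 with both exposures against neither (-0.04) stood at 0.06 with quantile normalization, 0.07 with centring and 0.02 with array weights. Own against ancestral exposure gave 127 calls with array weights (60 higher, 67 lower, so 47.2% higher against 28.3%), and 25 to 43 when 1 array was left out, against 46. Own exposure against neither gave 89 with quantile normalization, 79 with centring and 95 with array weights, and 34 to 55 when 1 array was left out, against 50. Ancestral exposure against neither gave 1 with quantile normalization (Fam120a, adjusted p = 0.01175), and 0 to 1 when 1 array was left out. Both exposures against neither gave 191 with centring, 662 with array weights, 213 without arrays 21, 22, 24 and 25, 573 with those as a block and 161 from only the groups compared, against 320. Leaving out 1 array there gave 137 to 840, and arrays 21, 25, 27, 28, 30, 44 and 45 each moved it by over 1.5 times. Its split of 22 higher and 298 lower became 145 and 168 with quantile normalization and 78 and 113 with centring. The cause of these changes was not tested. Over 156 values of named genes, 3749 alternative values held 146 that lost the threshold and 12 that gained it. No paired analysis was possible because the groups share no replicate number. With 5 to 7 arrays per group and PLIER options unknown, small differences of dim probe sets are the least certain.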
